A study of Mus musculus with 18 samples.

Results

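Fgf21, Gdf15, Nrg4, Bmp8b, Penk and Angptl4 encode secreted factors of brown fat, often termed batokines, and were taken by symbol from a count table of 20295 genes. All 6 were listed, 5 passed the filter on low counts that left 12156 genes for testing, and Bmp8b did not. Their levels were followed in differentiated BAT-LgT cells, a single line of mouse brown preadipocytes made immortal with the SV40 large T antigen, of wild type genotype in every group. RNA was taken on day 7 after 3 h with Vehicle, with isoproterenol (ISO, 100 nM), an agonist of β-adrenergic receptors, or with SR-3420 (10 µM by the labels, while the text of the study states another dose). SR-3420 binds ABHD5, the co-activator of the triglyceride lipase ATGL, and thereby starts lipolysis without a receptor signal. In the groups named Lipase Inh., inhibitors of ATGL and of hormone-sensitive lipase (HSL) had been added 1 h earlier, so that the 6 groups of 3 libraries ask which of these factors respond to the β-adrenergic signal, which to lipolysis, and which to ISO when lipolysis is blocked.

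Brown adipocytes burn fatty acids to make heat when noradrenaline from sympathetic nerves raises cAMP, which both drives transcription through PKA and CREB and releases fatty acids by lipolysis. Beside heat, they secrete peptides that act on the liver, the brain, nerves and neighbouring cells. FGF21 is a metabolic hormone that needs the co-receptor β-Klotho, and GDF15 is a stress hormone sensed by GFRAL in the hindbrain. NRG4 is an EGF-like ligand of ErbB receptors, BMP8B a BMP family ligand, Penk the precursor of enkephalin opioid peptides, and ANGPTL4 an inhibitor of lipoprotein lipase.

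Total counts lay between 10310447 and 21205032 in 17 of 18 libraries. Lipase Inh. + SR-3420 replicate 2 stood apart with 4263755 counts, of which the gene Lars2 took 18.3% against at most 0.121% elsewhere, and each value that changed its call without this library is given with the result. The 8 adipocyte markers summed to 13550.2 to 15068 CPM with Vehicle, 16935 to 18210 with ISO, 15438 to 16154 with SR-3420, 11709 to 12809 with Lipase Inh. + Vehicle, 13997 to 14340 with Lipase Inh. + ISO and 13463 to 14653 with Lipase Inh. + SR-3420, where CPM are counts scaled to library size with TMM factors. Single markers differed in direction. From Vehicle to SR-3420, mean CPM was lower for Adipoq (3593 to 2508), Pparg (536.9 to 301.6) and Pnpla2 (2108 to 1786). It was higher for Lipe (1804 to 3078), Cidec (1235 to 1787), Cebpa (1468 to 2031), Fabp4 (2603 to 3215) and Plin1 (761.7 to 1075). With ISO, Adipoq (3404) and Pparg (481.3) were below Vehicle and the others above. Of the 9 markers of brown adipocytes 8 passed the filter, but Dio2, the enzyme that activates thyroid hormone, had at most 6 counts in a library. Their sum ran from 291 to 376 CPM with Vehicle, 1739.6 to 1842 with ISO, 480.2 to 515 with SR-3420, 307 to 393 with Lipase Inh. + Vehicle, 1109 to 1357 with Lipase Inh. + ISO and 387 to 433 with Lipase Inh. + SR-3420. From Vehicle to ISO the largest increases in mean CPM were those of Ppargc1a (75.73 to 1080) and Ucp1 (2.688 to 363.6). Elovl3 (4.337 to 55.66) and Prdm16 (29.47 to 60.54) were also higher. Cidea (56.97 to 65.91), Ebf2 (122.7 to 119.7) and Cox7a1 (1.069 to 1.087) changed little, and Cox8b was lower (40.61 to 29.59). Preadipocyte or fibroblast markers (8 of 10 tested) stayed between 189.9 and 328 CPM in sum over the libraries. Macrophage markers (1 of 6 tested, Ptprc at 0 throughout) lay between 2.34 and 6.30 CPM, endothelial markers (0 of 5 tested) reached at most 1.17 CPM, and skeletal myocyte markers (2 of 6 tested, Myf5 at 0 throughout) at most 2.63 CPM. The part of these sums in the results was not tested, and in such bulk samples fewer cells of a type and less RNA per cell cannot be told apart.

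Per length of the counted gene model (RPKM), Angptl4 was by far the most abundant of the 6 with Vehicle at 273 ± 52 (SD, n = 3). It was followed by Nrg4 at 14.5 ± 1.22, Gdf15 at 10.9 ± 2.69, Penk at 1.2 ± 0.210 and Fgf21 at 0.426 ± 0.127, whereas Bmp8b lay at 0.0275 ± 0.0264. With ISO the order below Angptl4 (205 ± 44.7 RPKM) became Gdf15 at 72.3 ± 4.93, Nrg4 at 54.2 ± 1.87, Fgf21 at 45.3 ± 12.3 and Penk at 3.82 ± 0.604. With SR-3420, Gdf15 stood at 157 ± 23.2, Fgf21 at 47.5 ± 14, Nrg4 at 27.4 ± 1.74 and Penk at 1.56 ± 0.363, under 715 ± 46.7 for Angptl4. Fgf21 thus moved from below Penk with Vehicle to the level of Nrg4 with ISO, from which it did not differ beyond the spread between libraries.

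**Figure D1:**
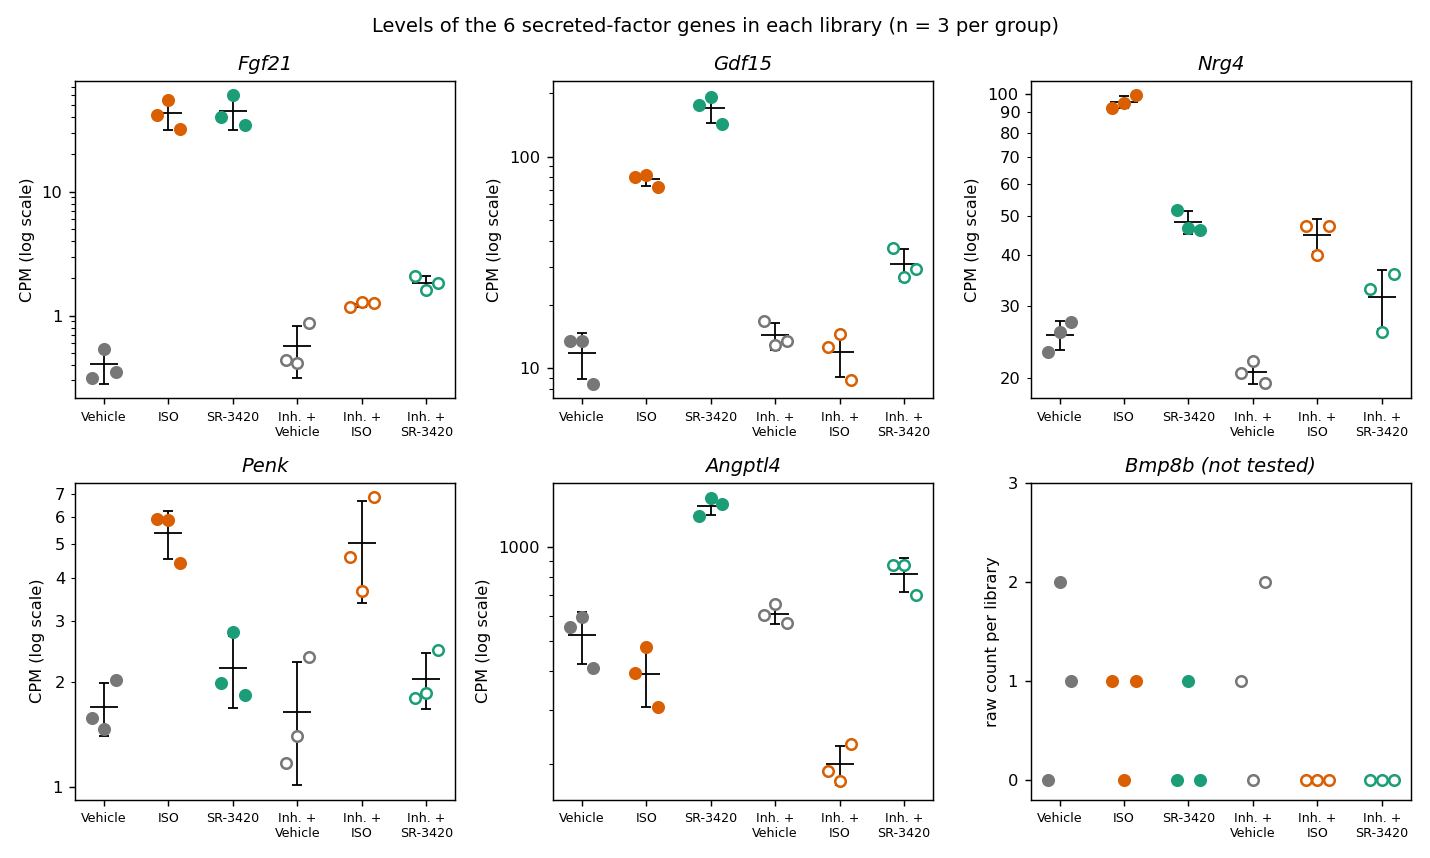
CPM of each library on a log axis for the 5 genes that passed the filter, and raw counts per library for Bmp8b on a linear axis, in the 6 groups (filled: no inhibitors, open: with lipase inhibitors). Points are single libraries and bars the mean and SD of 3. Fgf21 and Gdf15 are high with ISO and SR-3420 and fall back with the inhibitors, Nrg4 does so in part, Penk is high in both ISO groups, Angptl4 is highest with SR-3420, and Bmp8b never exceeds 2 counts.

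Calls came from edgeR's quasi-likelihood test with Benjamini-Hochberg adjustment and asked for an adjusted p-value no higher than 0.05 together with a log2 fold change of 1 or more in size. A gene past the p-value alone is said below to have risen or fallen. With ISO, 4 of the 5 members tested were called, and 9.11% of all genes tested were. SR-3420 gave 3 calls of 5 (background 6.33%), the inhibitors alone 0 of 5 (background 0.0494%). In the presence of inhibitors, ISO gave 3 calls (background 13.1%) and SR-3420 gave 2 (background 0.296%), each against Lipase Inh. + Vehicle. The effect of ISO differed with and without inhibitors in 3 members (background 6.89%), and that of SR-3420 in 2 (background 3.82%). ISO and SR-3420 compared directly differed in 3 members without inhibitors (background 2.04%) and in 3 with them (background 13.2%). Each comparison shares its Vehicle or stimulus group with another, so the counts are not independent of each other.

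The sequences just before the start of the 3 genes that rose with both stimuli, Fgf21, Gdf15 and Nrg4, are shown because their levels moved together to different degrees, with Pearson's r over the 18 libraries of 0.94 for Fgf21 and Gdf15, 0.82 for Fgf21 and Nrg4, and 0.62 for Gdf15 and Nrg4 (log2 CPM, as a description, since all points share the 6 groups). They are the 250 bases upstream of the start from RefSeq (GRCm38.p6, a later build than the mm9 of the counts), read 5′ to 3′ on the gene's strand. Windows were available for 4 of the 6 genes, Fgf21, Gdf15 (a pair of starts, the more upstream one shown), Nrg4 and Bmp8b, and for neither Penk nor Angptl4. The counted model of Gdf15 starts at 73155534 on the minus strand of mm9, whereas the annotated gene starts further upstream, at 73156355. The Gdf15 window shown therefore does not lie directly before the counted model. Capitals mark matches, on either strand, to TGATGNAAN, the C/EBP-ATF response element, and to TGACG, the core of a cAMP response element (CRE).
Fgf21, chr7:45615491-45615740, minus strand: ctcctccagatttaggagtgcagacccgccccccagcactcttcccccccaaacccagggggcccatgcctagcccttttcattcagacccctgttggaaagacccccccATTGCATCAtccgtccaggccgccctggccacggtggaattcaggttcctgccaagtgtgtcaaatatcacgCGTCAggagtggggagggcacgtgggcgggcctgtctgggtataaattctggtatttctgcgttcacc
Gdf15, chr8:70632457-70632706, minus strand: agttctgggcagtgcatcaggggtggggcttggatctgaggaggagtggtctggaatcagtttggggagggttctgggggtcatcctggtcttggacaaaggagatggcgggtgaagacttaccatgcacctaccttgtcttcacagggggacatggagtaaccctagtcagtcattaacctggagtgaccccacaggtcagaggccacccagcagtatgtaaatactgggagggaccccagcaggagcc
Nrg4, chr9:55283626-55283875, minus strand: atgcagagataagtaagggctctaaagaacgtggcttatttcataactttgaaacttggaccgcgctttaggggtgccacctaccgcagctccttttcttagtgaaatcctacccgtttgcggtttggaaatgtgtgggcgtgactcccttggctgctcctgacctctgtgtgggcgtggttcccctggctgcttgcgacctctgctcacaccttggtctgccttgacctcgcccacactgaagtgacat

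In the Fgf21 window the C/EBP-ATF element lay 140 to 132 bases before the start and the CRE core 68 to 64 bases before it. Such matches were present in 3.44% and 17.8% of all 32851 windows, respectively. The full CRE (TGACGTCA, which contains the core, 1.55% of windows), AP-1 (TGANTCA, 6.75%), the endoplasmic reticulum stress elements ERSE (0.113%) and ERSE-II (0.0304%), and the PPAR/RXR direct repeat (0.0335%) matched none of the 5 member windows. A CCAAT box (33.9%) was found in the window of Bmp8b and the second window of Gdf15. These are matches of letters in these windows and not sites of binding.

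Fgf21 (RefSeq NM_020013, mm9 chromosome 7, 52869260 to 52870860, minus strand, 3 exons) showed the largest response of the members and was near the detection floor without stimulation. Its counts were 5, 7 and 4 with Vehicle, 599, 657 and 304 with ISO, and 547, 752 and 663 with SR-3420, or 0.316, 0.541 and 0.353 CPM, 41.6, 55.2 and 31.9 CPM, and 40.2, 59.9 and 34.8 CPM. Every stimulated library lay far above every Vehicle library, and the stimuli overlapped each other. On the log2 scale Fgf21 rose by 6.72 ± 0.31 (SE; adjusted p-value 1.55e-13) with ISO and by 6.77 ± 0.31 (adjusted p-value 2.44e-13) with SR-3420, a 105-fold and a 109-fold rise. By the size of the fold change it was rank 7 of the 12156 genes tested with ISO and rank 2 with SR-3420. The difference between the stimuli was -0.06 (95% interval from -0.41 to 0.30, adjusted p-value 0.837).

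With lipases inhibited, the induction of Fgf21 was nearly gone. Its libraries held 0.437, 0.412 and 0.867 CPM with Lipase Inh. + Vehicle, 1.17, 1.28 and 1.27 CPM with Lipase Inh. + ISO, and 2.07, 1.6 and 1.84 CPM with Lipase Inh. + SR-3420, from only 5 to 29 counts each. These 3 groups did not overlap, and all of their libraries lay far under the lowest stimulated library without inhibitors. The interaction, the log2 fold change with inhibitors minus that without, was -5.68 ± 0.74 for ISO (adjusted p-value 3.72e-06) and -5.13 ± 0.73 for SR-3420 (adjusted p-value 2.02e-05). Of the log2 fold changes without inhibitors, 15.5% and 24.3% were left. What was left of the SR-3420 effect, 1.64 ± 0.47 (adjusted p-value 0.0476), lay just past the threshold. It was lost in 12 of 18 fits with 1 library left out (Vehicle replicates 1 to 3, ISO replicate 1, Lipase Inh. + Vehicle replicates 1 and 2, or any library of Lipase Inh. + ISO or Lipase Inh. + SR-3420), with adjusted p-values from 0.0555 to 0.17 (0.0752 without the shallow library), and after thinning all libraries to the smallest total it was 1.24 (adjusted p-value 0.457). For ISO the remaining difference was 1.04 (95% interval from 0.04 to 2.04, adjusted p-value 0.0686) and missed the threshold. It passed with DESeq2 (adjusted p-value 0.0212), with no filter on low counts (0.0291) and with only the groups compared (0.029). It also passed with ISO replicate 2 or 3, SR-3420 replicate 2 or 3, or Lipase Inh. + Vehicle replicate 3 left out (adjusted p-values from 0.0285 to 0.0473), and without the last of these the difference was 1.53.

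Gdf15 (NM_011819, chromosome 8, 73153293 to 73155534, minus strand, 2 exons) responded more to SR-3420 than to ISO. It was measured at 13.5, 13.5 and 8.47 CPM with Vehicle, at 80.5, 82.3 and 72.3 CPM with ISO and at 175, 192 and 142 CPM with SR-3420. The 3 groups were fully separated, with SR-3420 above ISO above Vehicle. Gdf15 rose 6.55-fold with ISO (log2 2.71 ± 0.17, adjusted p-value 1.87e-11) and 14.1-fold with SR-3420 (log2 3.82 ± 0.17, adjusted p-value 1.54e-13). The direct difference, ISO minus SR-3420, was -1.11 ± 0.14 on the log2 scale (adjusted p-value 5.44e-06).

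With inhibitors, Gdf15 no longer stood above its control after ISO but still did after SR-3420. The libraries held 16.8, 12.9 and 13.4 CPM with Lipase Inh. + Vehicle, 12.6, 14.5 and 8.82 CPM with Lipase Inh. + ISO and 37.2, 26.9 and 29.3 CPM with Lipase Inh. + SR-3420. The first and second of these groups overlapped, and the SR-3420 libraries lay above both. With ISO the log2 fold change of Gdf15 was -0.30 (95% interval from -0.69 to 0.09, adjusted p-value 0.177), a difference that passed the test on total counts alone (-0.52, adjusted p-value 0.0239). Gdf15 still rose by 1.14 ± 0.18 with SR-3420 (adjusted p-value 0.000298). The interaction was -3.01 ± 0.25 for ISO (adjusted p-value 6.89e-09) and -2.68 ± 0.24 for SR-3420 (adjusted p-value 7.00e-08). Between the inhibitor groups the log2 difference of Gdf15, ISO minus SR-3420, was -1.44 ± 0.18 (adjusted p-value 6.24e-07).

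Nrg4 (NM_032002, chromosome 9, 55068029 to 55131432, minus strand, 8 exons) responded more to ISO than to SR-3420 and kept much of both responses with inhibitors. It was measured at 23.2, 25.9 and 27.4 CPM with Vehicle, 92.5, 95 and 99.1 CPM with ISO, and 51.8, 46.7 and 46.3 CPM with SR-3420. The groups did not overlap. Nrg4 rose 3.75-fold with ISO (log2 1.91 ± 0.10, adjusted p-value 8.24e-13) and 1.90-fold with SR-3420 (log2 0.92 ± 0.10, adjusted p-value 1.07e-07, under the fold threshold), and the difference between the stimuli was 0.98 ± 0.09 (adjusted p-value 6.73e-08).

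In the inhibitor groups Nrg4 was measured at 20.5, 22.0 and 19.4 CPM with Lipase Inh. + Vehicle, 47.4, 40.1 and 47.2 CPM with Lipase Inh. + ISO, and 33.1, 25.8 and 36 CPM with Lipase Inh. + SR-3420. The libraries of each stimulus lay above those of the control and did not overlap with each other. Nrg4 rose with ISO by 1.13 ± 0.10 (adjusted p-value 3.61e-09) and with SR-3420 by 0.66 ± 0.11 (adjusted p-value 0.000453). These effects come to 59.1% and 71.7% of the log2 fold changes without inhibitors. The interaction was -0.78 ± 0.14 for ISO (adjusted p-value 0.000179, under the fold threshold) and -0.26 for SR-3420 (95% interval from -0.56 to 0.04, adjusted p-value 0.191). Nrg4 lies over Fbxo22, a gene on the opposite strand, by 4212 bases, and the nearest annotated transcript shares 166 of its 1927 exon bases with Fbxo22 exons. Whether counting used strand is not given in the sources used here, so reads of the pair cannot be told apart there. The log2 fold changes of Fbxo22 were 0.55 with ISO (adjusted p-value 4.12e-08) and 0.26 with SR-3420 (adjusted p-value 0.000499), against 1.91 and 0.92 for Nrg4.

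Penk (NM_001002927, chromosome 4, 4060683 to 4065592, minus strand, 2 exons) responded to ISO whether or not lipases were inhibited. From 19 to 25 counts with Vehicle and 42 to 85 with ISO, its levels were 1.58, 1.47 and 2.03 CPM with Vehicle, 5.90, 5.88 and 4.41 CPM with ISO, and 1.98, 2.79 and 1.83 CPM with SR-3420. The ISO libraries lay above all others without inhibitors, and SR-3420 overlapped with Vehicle. Penk rose 3.23-fold with ISO (log2 1.69 ± 0.28, adjusted p-value 3.11e-05, and 0.08 when tested against a log2 fold of 1 with glmTreat). With SR-3420 its log2 fold change was 0.37 (95% interval from -0.27 to 1.01, adjusted p-value 0.332), and the difference between the stimuli was 1.32 ± 0.27 (adjusted p-value 0.000777).

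With inhibitors, Penk was measured at 1.17, 1.4 and 2.37 CPM with Lipase Inh. + Vehicle, 4.59, 3.66 and 6.84 CPM with Lipase Inh. + ISO, and 1.80, 1.87 and 2.48 CPM with Lipase Inh. + SR-3420. The ISO libraries again stood above the rest. Penk rose with ISO by 1.61 ± 0.27 (adjusted p-value 3.36e-05), and its interaction of ISO with the inhibitors was -0.08 (95% interval from -0.92 to 0.75, adjusted p-value 0.901). For SR-3420 the log2 fold change was 0.33 (95% interval from -0.35 to 1.01, adjusted p-value 0.686) and the interaction -0.04 (95% interval from -0.97 to 0.90, adjusted p-value 0.963). ISO and SR-3420 differed by 1.28 ± 0.29 with inhibitors (adjusted p-value 0.000657). An annotated non-coding RNA on the opposite strand, A830012C17Rik, overlaps Penk by 125 bases.

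Angptl4 (NM_020581, chromosome 17, 33911845 to 33918520, minus strand, 7 exons) differed in direction between the stimuli. It was measured at 554, 597 and 408 CPM with Vehicle, 392, 475 and 305 CPM with ISO, and 1265, 1439.9 and 1378 CPM with SR-3420. ISO overlapped with Vehicle, and every SR-3420 library lay above both. Angptl4 rose 2.62-fold with SR-3420 (log2 1.39 ± 0.14, adjusted p-value 5.54e-08, and 0.0614 against a log2 fold of 1 with glmTreat). With ISO it fell by 0.41 ± 0.14 on the log2 scale (adjusted p-value 0.0187, under the fold threshold), a difference that no longer passed the test without Vehicle replicate 1, Vehicle replicate 2 or ISO replicate 3 (adjusted p-values of 0.0703, 0.118 and 0.127). The difference ISO minus SR-3420 was -1.80 ± 0.14 (adjusted p-value 6.08e-09).

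With inhibitors, Angptl4 lay at 604, 654 and 569.5 CPM with Lipase Inh. + Vehicle, 191, 177 and 232 CPM with Lipase Inh. + ISO, and 878, 878 and 702 CPM with Lipase Inh. + SR-3420. The 3 groups were separated, with ISO below and SR-3420 above the control. Angptl4 fell with ISO by 1.6 ± 0.14 (adjusted p-value 3.97e-09), and its libraries were the lowest of all 18. With SR-3420 its log2 fold change was 0.43 (95% interval from 0.13 to 0.72, adjusted p-value 0.0996), which passed with no filter on low counts (adjusted p-value 0.0127) and with only the groups compared (0.0267). The interactions were both negative, at -1.2 ± 0.20 for ISO (adjusted p-value 8.10e-05) and -0.96 ± 0.20 for SR-3420 (adjusted p-value 0.000973, under the fold threshold), and ISO and SR-3420 differed by -2.03 ± 0.15 with inhibitors (adjusted p-value 1.25e-10).

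**Figure D2:**
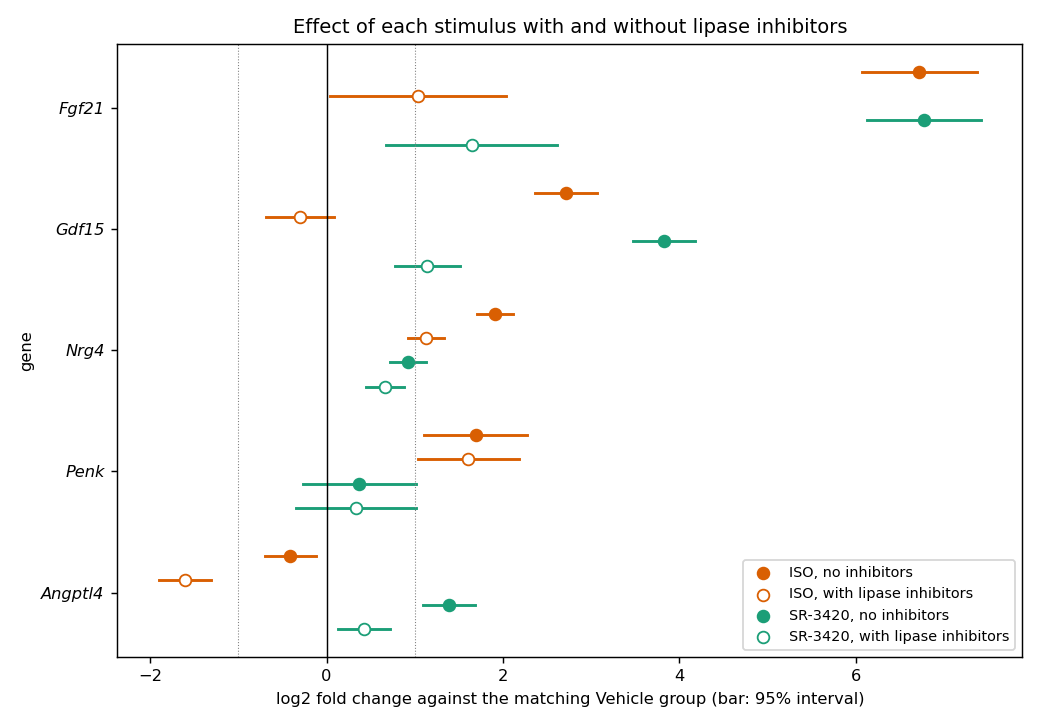
Log2 fold change of each stimulus against its own Vehicle group, without (filled) and with (open) lipase inhibitors, for the 5 members tested, with 95% intervals. The values of Fgf21 drop from 6.72 and 6.77 to 1.04 and 1.64 and those of Gdf15 from 2.71 and 3.82 to -0.30 and 1.14, while Penk with ISO stays at 1.69 and 1.61 and Angptl4 with ISO goes from -0.41 to -1.6. Dotted lines mark the fold threshold of 1.

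Bmp8b (NM_007559, chromosome 4, 122782408 to 122803334, plus strand, 7 exons) was close to absent in these cells. Its 18 libraries held 0 to 2 counts each, in sum 3 counts with Vehicle, 2 with ISO, 1 with SR-3420, 3 with Lipase Inh. + Vehicle, and 0 in both remaining groups. A count of 0 over 3 libraries allows up to 0.0718 CPM with Lipase Inh. + ISO and 0.0981 CPM with Lipase Inh. + SR-3420 (3 counts over the group). No difference was detectable at this depth and no fold change is given. The near copy Bmp8a, with which reads may be shared, had at most 5 counts in a library.

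The inhibitors alone passed the test for none of the 5 members by edgeR's quasi-likelihood test (1 of 5 at an unadjusted p-value under 0.05, and 0 calls by DESeq2). That gene was Nrg4, whose Lipase Inh. + Vehicle libraries all lay below the Vehicle libraries, with a log2 fold change of -0.30 (95% interval from -0.52 to -0.09, adjusted p-value 0.223). For the others the intervals ran from -0.72 to 1.87 for Fgf21, -0.13 to 0.65 for Gdf15, -0.65 to 0.67 for Penk and -0.06 to 0.52 for Angptl4.

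Comparing the stimuli directly, the members fell on either side. Nrg4 and Penk were higher with ISO than with SR-3420, Gdf15 and Angptl4 were lower, and Fgf21 did not pass the test, each with and without inhibitors. With inhibitors the differences, ISO minus SR-3420, were 0.46 ± 0.10 for Nrg4 (adjusted p-value 0.000480) and -0.60 for Fgf21 (95% interval from -1.45 to 0.24, adjusted p-value 0.216).

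**Figure D3:**
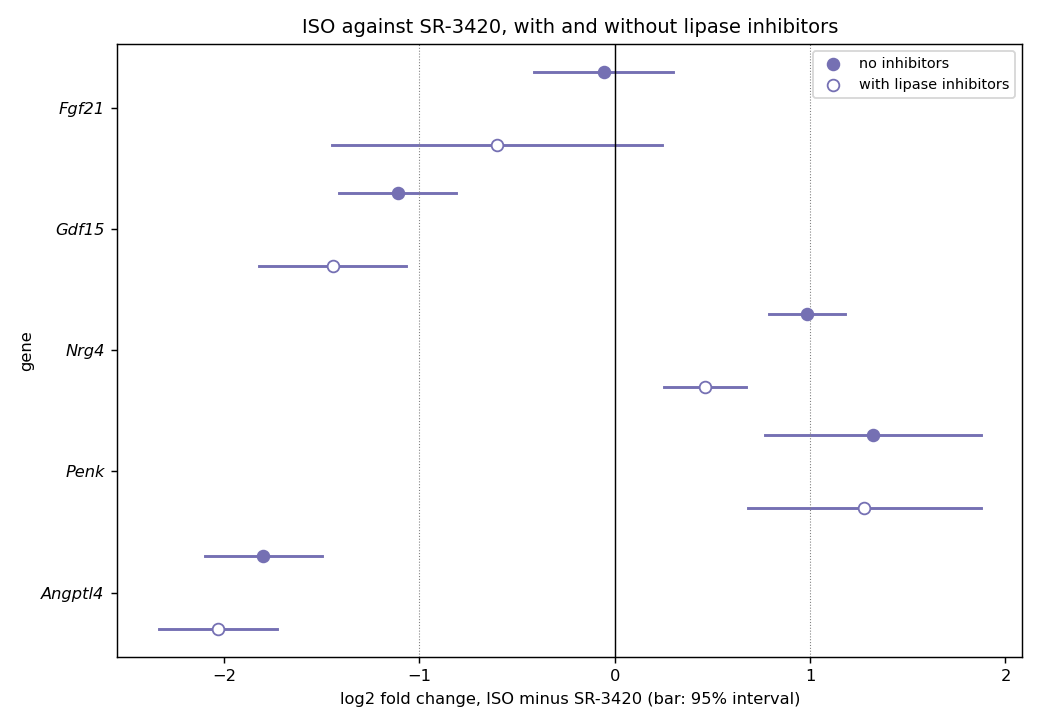
Log2 fold change of ISO against SR-3420 without (filled) and with (open) lipase inhibitors for the 5 members tested, with 95% intervals; values above 0 are higher with ISO. Nrg4 and Penk lie above 0 (0.98 and 1.32 without inhibitors) and Gdf15 and Angptl4 below 0 (-1.11 and -1.80), while the intervals of Fgf21 include 0.

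The order of the 6 groups differed between the genes. Fgf21 ran from SR-3420 (44.9 ± 13.2 CPM, SD) and ISO (42.9 ± 11.7), which overlapped, over Lipase Inh. + SR-3420 (1.84 ± 0.237) and Lipase Inh. + ISO (1.24 ± 0.0604) to the overlapping Lipase Inh. + Vehicle (0.572 ± 0.256) and Vehicle (0.403 ± 0.121). Gdf15 ran from SR-3420 (169.7 ± 25.1 CPM) over ISO (78.3 ± 5.34) to Lipase Inh. + SR-3420 (31.2 ± 5.39), all separated, and its other groups overlapped. For Nrg4, ISO (95.5 ± 3.30 CPM) stood alone at the top and Lipase Inh. + Vehicle (20.6 ± 1.30) alone at the bottom, with overlap of SR-3420 (48.3 ± 3.06) with Lipase Inh. + ISO (44.9 ± 4.15) and of Lipase Inh. + SR-3420 (31.6 ± 5.23) with Vehicle (25.5 ± 2.15). Penk split into the pair of ISO (5.40 ± 0.852 CPM) and Lipase Inh. + ISO (5.03 ± 1.64) and 4 overlapping groups of 1.65 ± 0.638 to 2.2 ± 0.512. Angptl4 ran from SR-3420 (1361 ± 88.9 CPM) and Lipase Inh. + SR-3420 (819 ± 102) down to Lipase Inh. + ISO at the bottom, all 3 set apart, with Lipase Inh. + Vehicle (609 ± 42.5) and ISO (391 ± 85.1) in between, each overlapping with Vehicle (519 ± 99.0) but not with each other. Penk correlated with Nrg4 (r = 0.79) but weakly with Gdf15 (r = 0.15), and Angptl4 ran opposite to Penk (r = -0.60), over the same 18 libraries as a description.

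The 3 genes most like each member, among those tested whose mean log2 CPM was 1 or higher, were found by Pearson's r of log2 CPM over the 18 libraries, which share the 6 groups. For Fgf21 they were Piezo1, a mechanically gated ion channel, Slc7a1, a transporter of cationic amino acids, and Atf3, a transcription factor of stress responses, each at r = 0.99. For Gdf15 they were Ppp1r15b, a subunit of the phosphatase that acts on eIF2α (r = 0.98), Pdk4, an inhibitory kinase of pyruvate dehydrogenase (r = 0.98), and Spty2d1 (r = 0.98). Nrg4 was most like Tiparp, an ADP-ribosyltransferase (r = 0.98), the nuclear receptor Nr4a1 (r = 0.97) and the ubiquitin-binding Ubqln1 (r = 0.97). Without Lipase Inh. + SR-3420 replicate 2, the overlapping gene Fbxo22 came first for Nrg4 (r = 0.98). Penk was most like Thbd, which encodes thrombomodulin (r = 0.95), Ube2b, a ubiquitin-conjugating enzyme (r = 0.93), and Ssr3 (r = 0.92). Angptl4 was most like Nabp1, a single-stranded DNA binding protein (r = 0.98), the ubiquitin ligase Dtx2 (r = 0.96) and Ing5 (r = 0.95).

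The similar genes differed from the members in the size of the response. Fgf21 rose from 0.403 to 42.9 CPM with ISO, whereas Slc7a1 went from 99.0 to 506 CPM and Atf3 from 14 to 452 CPM in the group means. Pdk4, at 545 CPM with Vehicle, 2863 with ISO and 4609 with SR-3420, had the order of Gdf15. Thbd, at 58.8 CPM with Vehicle, 207.5 with ISO and 226 with Lipase Inh. + ISO, had the order of Penk in that both ISO groups were high.

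**Figure D4:**
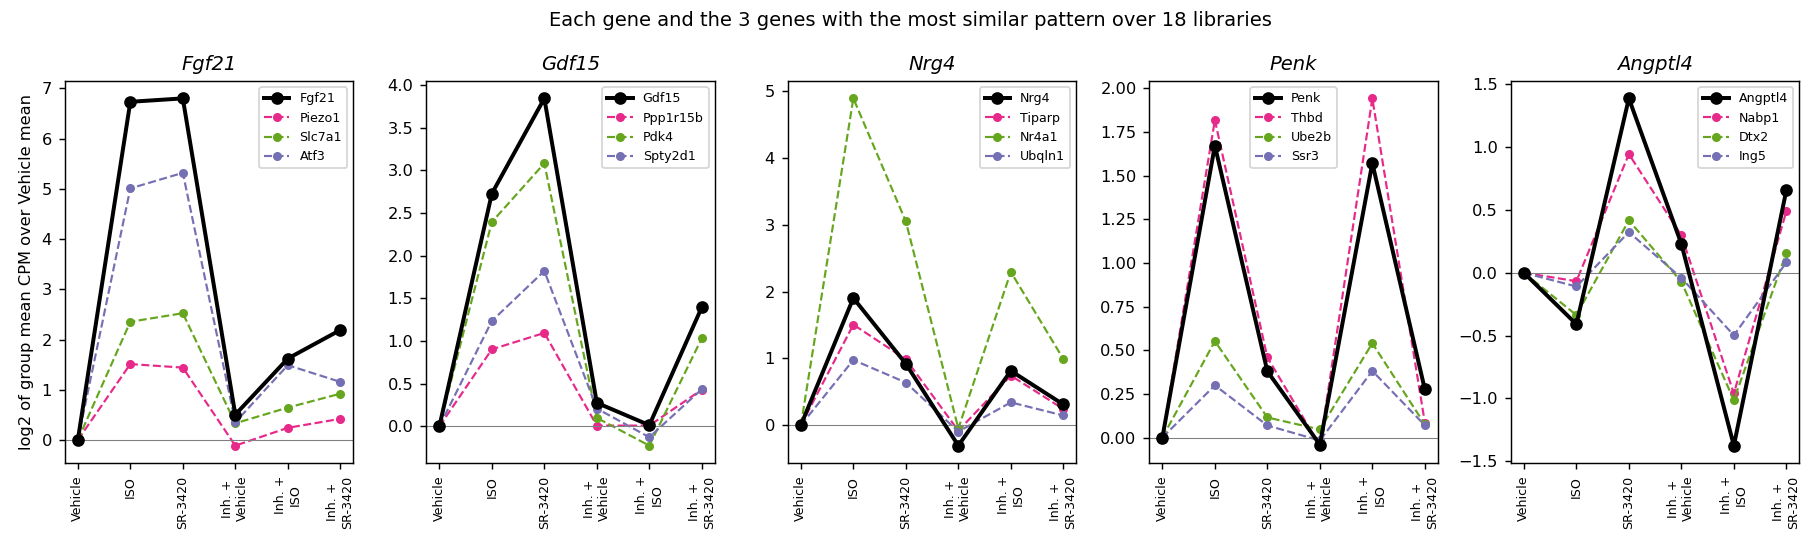
Log2 of the group mean CPM over the Vehicle mean, in the 6 groups, for each member (black) and the 3 genes with the highest r to it (dashed). The lines have a similar shape across the stimulated groups but can lie on opposite sides of Vehicle in groups close to it, and they differ in height, as for Fgf21, which goes from 0.403 to 42.9 CPM with ISO while Piezo1 goes from 73.5 to 209 CPM.

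The receptors of the 6 factors, 13 of 20 tested, were mostly not called. With ISO 1 was called higher and 3 lower (5.03% of all genes were called higher and 4.07% lower), and with SR-3420 none (3.97% and 2.37%). On total counts without TMM factors, 0 were called higher with ISO and 1 lower with SR-3420. The median of the tested receptors was -0.24 for ISO and -0.01 for SR-3420 on the log2 scale, against -0.02 for all genes with either. Klb, the co-receptor β-Klotho that FGF21 needs, rose by 1.27 ± 0.07 with ISO (adjusted p-value 9.97e-13) and by 0.51 ± 0.07 with SR-3420 (adjusted p-value 1.28e-06), and its interactions with the inhibitors did not pass the test. Acvr1c, an activin-type receptor kinase, fell by 1.12 ± 0.08 with ISO (adjusted p-value 3.31e-10) and by 0.59 ± 0.08 with SR-3420 (adjusted p-value 4.54e-06). Both other receptors called lower had few counts, Acvr2b, which fell by 1.68 ± 0.50 with ISO (adjusted p-value 0.00778) with at most 32 counts in a library, and the ErbB receptor Erbb3, which fell by 1.4 ± 0.54 (adjusted p-value 0.0331) with at most 20 counts. Gfral, the receptor of GDF15, and the opioid receptor Oprm1 had 0 counts in every library, and Erbb4, a receptor of NRG4, at most 5.

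Enzymes that cut the precursors and extracellular partners of the factors, 8 of 13 tested, had 0 calls with either stimulus by edgeR, although some passed the p-value alone. Their median was -0.25 for ISO and -0.27 for SR-3420 on the log2 scale. Furin, a protease that cuts many secreted precursors, fell by 0.65 ± 0.09 with ISO (adjusted p-value 4.41e-06) and by 0.77 ± 0.09 with SR-3420 (adjusted p-value 5.80e-07). Its interaction with ISO was 1.27 ± 0.13 (adjusted p-value 1.28e-07), the 1 interaction called in the list. The direction turned, as with inhibitors Furin rose by 0.62 ± 0.09 with ISO (adjusted p-value 4.79e-06). Adam17, a protease that sheds membrane-bound ligands, rose by 0.65 ± 0.07 with ISO (adjusted p-value 1.76e-07) and by 0.56 ± 0.07 with SR-3420 (adjusted p-value 1.68e-06). Pcsk1, a convertase that cuts the enkephalin precursor in neuroendocrine cells, had 0 counts in every library. Lpl, the lipase that ANGPTL4 inhibits, had interactions of 0.76 ± 0.15 with ISO (adjusted p-value 0.000537) and 0.52 ± 0.15 with SR-3420 (adjusted p-value 0.0147). With ISO it rose by 0.36 ± 0.11 without inhibitors (adjusted p-value 0.00756) and by 1.12 ± 0.11 with them (adjusted p-value 1.26e-08). With SR-3420 it fell by 0.37 ± 0.11 without inhibitors (adjusted p-value 0.00654) and did not pass the test with them (0.15, adjusted p-value 0.568).

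Among near relatives of the factors (13 of 28 tested), ISO gave 2 calls higher and SR-3420 gave 3, and 0 lower, with medians of -0.19 and 0.17 (with ISO 1 higher and 1 lower on total counts). The interactions gave 3 calls lower for ISO and 3 for SR-3420, where 4.71% and 2.42% of all genes were called lower, and 0 higher (2.18% and 1.4%). The EGF family ligands Ereg and Hbegf rose by 1.83 ± 0.12 (adjusted p-value 4.93e-11) and by 1.25 ± 0.13 (adjusted p-value 4.97e-08) with SR-3420. With ISO they rose by 1.01 ± 0.12 (adjusted p-value 3.60e-07) and by 0.69 ± 0.13 (adjusted p-value 0.000152). Inhba, a subunit of activin, rose by 1.59 ± 0.13 with ISO (adjusted p-value 1.64e-09) and by 1.23 ± 0.13 with SR-3420 (adjusted p-value 1.11e-07). The interaction of ISO was -2.01 ± 0.29 for Fgf1 (adjusted p-value 1.48e-05), a growth factor of the family of FGF21, and -1.68 ± 0.25 for Btc (adjusted p-value 2.67e-05), the EGF family ligand betacellulin. Fgf1 did not pass the test with ISO alone (0.34, adjusted p-value 0.154) and fell by 1.68 ± 0.22 with ISO and inhibitors (adjusted p-value 8.91e-07). Btc fell by 0.49 ± 0.17 with ISO alone (adjusted p-value 0.0176) and by 2.16 ± 0.19 with ISO and inhibitors (adjusted p-value 2.52e-09). Other secreted factors of brown fat (17 of 20 tested) had 2 calls higher with either stimulus and 0 lower, with medians of 0.15 and -0.17 (-0.15 and -0.33 on total counts). Il6, which encodes a cytokine, rose by 3.84 ± 0.52 with ISO (adjusted p-value 2.23e-06) with at most 41 counts in a library, and Metrnl, a secreted factor named meteorin-like, rose by 1.70 ± 0.18 with ISO (adjusted p-value 9.73e-08). With SR-3420 they rose by 2.37 ± 0.61 (adjusted p-value 0.00262) and by 0.695 ± 0.19 (adjusted p-value 0.00408).

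Fgf21 and Gdf15 are known as targets of ATF4 and CHOP, the factors of the integrated stress response, Angptl4 of the fatty acid receptors PPAR, and Penk of CREB, so genes of these pathways were set beside them. All 16 genes of the ATF4 and CHOP pathway were tested. ISO gave 5 calls higher and SR-3420 gave 7 (5.03% and 3.97% of all genes), and 0 lower (4.07% and 2.37%). The medians were 0.71 and 0.86, and on total counts ISO gave 3 calls higher. Their interactions were called lower for 8 genes with ISO (1 higher, Xbp1, named after its value was seen) and for 6 with SR-3420 (0 higher), with medians of -1.13 and -0.85 against 0.01 for all genes. Over all genes tested, interactions were called lower for 4.71% with ISO and 2.42% with SR-3420, and higher for 2.18% and 1.4%. Atf3 rose by 5.00 ± 0.16 with ISO (adjusted p-value 2.95e-16) and by 5.31 ± 0.16 with SR-3420 (adjusted p-value 5.33e-16), with interactions of -3.86 ± 0.22 and -4.50 ± 0.23. Chac1, a glutathione-degrading enzyme induced by ATF4 and CHOP, rose by 2.2 ± 0.12 with SR-3420 (adjusted p-value 2.59e-12) and had an interaction of -3.13 ± 0.19 with ISO. It rose by 0.90 ± 0.12 with ISO alone (adjusted p-value 1.65e-06) and fell by 2.23 ± 0.14 with ISO and inhibitors (adjusted p-value 2.01e-11). Trib3 did not pass the test with ISO alone (0.01, adjusted p-value 0.938) and fell by 2.36 ± 0.10 with ISO and inhibitors (adjusted p-value 1.34e-14).

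The shares of all genes given with the ATF4 and CHOP list, for the stimuli and for the interactions, also hold for the PPAR and cAMP lists. PPAR target genes (17 of 18 tested) had 5 genes called higher by ISO and 7 by SR-3420, 0 lower, and medians of 0.72 and 0.79. The interactions had 7 calls lower and 1 higher (Ucp3, named after its value was seen) for ISO, and 4 lower and 0 higher for SR-3420. With inhibitors, ISO gave 3 calls higher and 1 lower in this list. Over all 12156 genes tested, 660 were called higher and 928 lower in that comparison, 13.1% in either direction. Pdk4 rose by 2.39 ± 0.10 with ISO (adjusted p-value 1.10e-14) and by 3.08 ± 0.10 with SR-3420 (adjusted p-value 8.69e-16), and the lipid droplet protein gene Plin2 rose by 2.49 ± 0.12 (adjusted p-value 1.43e-13) and by 2.61 ± 0.12 (adjusted p-value 1.56e-13). Angptl4 itself, at -0.41 with ISO, lay on the other side of 0 from both genes with ISO and on the same side with SR-3420. The whole list ran from -0.21 to 3.71 with ISO. With ISO and inhibitors the list ran from -1.71 to 1.68 (median -0.04), and Angptl4, at -1.6, lay inside that range. There the log2 fold change was -0.32 ± 0.09 for Pdk4 (adjusted p-value 0.0044) and -0.64 ± 0.11 for Plin2 (adjusted p-value 4.84e-05). Of the cAMP and CREB target genes (18 of 19 tested), ISO gave 14 calls higher and SR-3420 gave 11, 0 lower, with medians of 1.72 and 1.44. The interactions were called lower for 7 with ISO and 8 with SR-3420, 0 higher. With inhibitors, ISO gave 11 calls higher and 0 lower in this list, beside the 660 higher and 928 lower of all 12156 genes. Nr4a3, a nuclear receptor, rose by 9.34 ± 0.26 (adjusted p-value 3.19e-17) and Ucp1, the uncoupling protein of brown fat, by 7.08 ± 0.28 (adjusted p-value 9.56e-15) with ISO. With SR-3420 they rose by 2.67 ± 0.57 (adjusted p-value 0.000476) and by 2.11 ± 0.34 (adjusted p-value 2.17e-05). Pck1, an enzyme of glyceroneogenesis, rose by 3.10 ± 0.19 with SR-3420 (adjusted p-value 1.54e-11) and by 4.18 ± 0.19 with ISO (adjusted p-value 1.43e-13). The genes of this list differed in the interaction of ISO with the inhibitors. For Nr4a3 (-0.56, adjusted p-value 0.646) and Ucp1 (1.11, adjusted p-value 0.0885) it did not pass the test. It was -2.56 ± 0.15 for Nr4a1 (adjusted p-value 5.05e-11) and -2.42 ± 0.25 for Pck1 (adjusted p-value 1.34e-07).

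On total counts without TMM factors the median gene shifted by -0.31 with ISO and by -0.16 with SR-3420, and of all genes called with ISO 22.2% in place of 55.3% were higher, and of those called with SR-3420 40.1% in place of 62.6%. For the interactions the share higher was 41.6% in place of 31.6% for ISO and 48.6% in place of 36.6% for SR-3420. Every direction given above for a member that passed the test held on that scale.

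**Figure D5:**
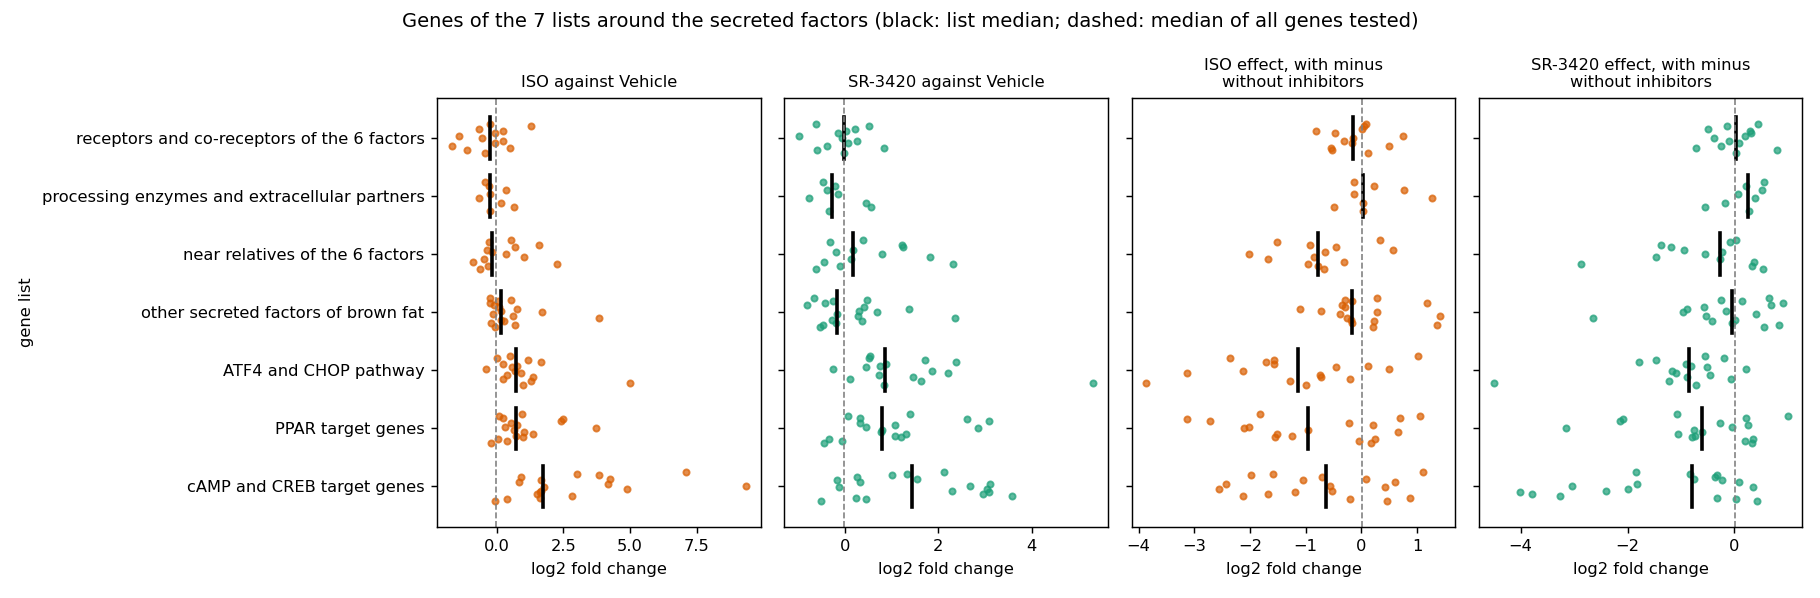
Log2 fold changes of the tested genes of the 7 lists (points), with the list median (black) and the median of all genes tested (dashed), for both stimuli and for both interactions (effect with minus without inhibitors). The medians of the ATF4 and CHOP, PPAR and cAMP lists lie to the right of the dashed line with either stimulus, at 0.71 to 1.72. In the interactions these medians lie to the left. Single genes of each list lie on the other side of the line.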

How the data were processed

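RNA-seq counts of 18 libraries (6 groups, 3 each, groups and replicate numbers from the sample titles) were analysed. Per the methods of the study, replicates are independent experiments. The authors aligned reads to mm9 with STAR 2.4.2a, kept 1 read per position and length in HOMER, and ran iRNA-seq on RefSeq gene models. They deposited whole-number counts, neither normalised nor filtered, with positions and counted lengths. A limit of 1 read per position and length can hold down the counts of the most abundant genes. Angptl4 still reached 26281 counts over 1903 counted bases, and whether the limit shaped the deposited counts was not tested. Other columns of samples numbered 0. Use of strand is not stated in the sources used here. Without molecular identifiers, floors cover counting error only.

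Counts were fitted in R 4.3.3 with edgeR 4.0.16 (filterByExpr with minimum count 10 and minimum total count 15, TMM, quasi-likelihood F-test on group means over all 18 libraries, Benjamini-Hochberg over 12156 genes). SE was taken from the fold change and its F statistic. RPKM used the counted length. Alternatives were DESeq2 1.42.0, RLE or total-count scaling, scaling without Lars2, other filters, glmTreat, only the groups compared, a replicate block, thinning to the smallest total (seed 1) and leaving out each library. No replicate pair differed by as little as sampling noise. The scripts were tested on simulated counts.

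The 6 genes, the 7 gene lists and the markers were chosen with earlier results of these data known. Named genes are the 6 members, the 3 genes most like each (Pearson's r of log2 CPM, prior count 2), genes that overlap or nearly copy a member, and, per list and comparison, up to 3 genes with the largest change among those with an adjusted p-value of at most 0.05. List genes named for absence of counts were chosen after their values were seen. Exons and overlaps came from the mm9 GENCODE annotation. Results of 1 listed gene are not reported here.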

Additional observations from a re-analysis of the deposited data

Results flagged for a closer look

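Results were marked here where the effect of a stimulus differed with and without lipase inhibitors by the interaction test, edgeR's quasi-likelihood test with Benjamini-Hochberg adjustment. For ISO the effect with minus the effect without inhibitors was -5.68 for Fgf21 (adjusted p-value 3.72e-06), -3.01 for Gdf15 (adjusted p-value 6.89e-09), -0.78 for Nrg4 (adjusted p-value 0.000179) and -1.2 for Angptl4 (adjusted p-value 8.10e-05), on the log2 scale. For SR-3420 it was -5.13 for Fgf21 (adjusted p-value 2.02e-05), -2.68 for Gdf15 (adjusted p-value 7.00e-08) and -0.96 for Angptl4 (adjusted p-value 0.000973). The signs have to be read against the effects themselves: for Angptl4 with ISO a fall became deeper, for the others a rise was smaller with inhibitors, and with inhibitors Fgf21 and Gdf15 with ISO and Angptl4 with SR-3420 did not pass the test. With 3 libraries per group, single libraries were not tested as outliers.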

How the results depend on the processing

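Of the comparisons of members under other settings, 1219 kept their side of the threshold, 27 lost it and 13 gained it, and none that passed changed sign. The threshold was the adjusted p-value alone, except that glmTreat, which tests the fold, was held against the calls with the fold threshold. Against a fold of 1 (glmTreat) the members called fell from 4 to 3 for ISO (Penk lost, 0.08), from 3 to 2 for SR-3420 (Angptl4 lost, 0.0614), from 3 to 1 for ISO with inhibitors (Nrg4 0.408, Penk 0.0741), from 2 to 0 for SR-3420 with inhibitors (Fgf21, Gdf15), from 3 to 2 for the ISO interaction (Angptl4 lost), from 3 to 1 for ISO against SR-3420 (Gdf15, Penk lost) and from 3 to 2 for the same with inhibitors (Penk lost, 0.633). They stayed at 2 for the SR-3420 interaction, and the genes called over the whole table fell to 383 (ISO), 234 (SR-3420), 0 (inhibitors alone), 725 and 0 (ISO and SR-3420 with inhibitors), 237 and 70 (interactions), 52 and 704 (ISO against SR-3420 without and with inhibitors), since this test asks for more. For SR-3420 with inhibitors, 1 member was called on total counts and 1 after thinning, 0 to 2 with single libraries left out (0 without Lipase Inh. + SR-3420 replicate 1), and 59 in place of 36 genes were called with no filter. For ISO with inhibitors the effect on Fgf21 passed with DESeq2 (adjusted p-value 0.0212), with no filter (0.0291) and with only the groups compared (0.029). That of SR-3420 on Angptl4 with inhibitors passed with no filter (0.0127) and with only the groups compared (0.0267). The causes were not tested. Of 15 genes named as most like a member, 14 were shared with prior count 0.5 and 10 without Lipase Inh. + SR-3420 replicate 2.

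Same-numbered libraries did not all deviate together (mean correlation of -0.0118, 0.150 and 0.190 for numbers 1, 2 and 3; 12 of 18 libraries correlated best with their own number), so a replicate block was an alternative only. With the block 4 in place of 3 members were called for ISO with inhibitors, and the other counts of members did not move. The effects with inhibitors of ISO on Fgf21 (adjusted p-value 0.0111) and of SR-3420 on Angptl4 (adjusted p-value 0.0203) passed under it, and no other call of a member changed.

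Depth limits Fgf21 in the groups with low levels, where counts were 4 to 29, Penk, with 7 to 135 counts, and Bmp8b, with at most 2.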
